A study of Arabidopsis thaliana with 6 samples.

Results

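The expression of the Aux/IAA and ARF gene families of auxin signalling was examined in Arabidopsis thaliana shoots. All 29 Aux/IAA genes (IAA1 to IAA34) and 15 ARF genes (ARF1 to ARF11 and ARF16 to ARF19) were selected by their locus identifiers, which gave 44 of the 28775 genes in the count files. RNA was sequenced from the aerial part of 2-week-old seedlings of the wild-type accession Col-0 and of the myc2 mutant, with 3 libraries per genotype, all grown at 22 °C under 16 h light and 8 h dark and untreated as far as the labels say. The labels name no transgene in either genotype (myc2 allele and plants per library not given in the sources used here). Replicates are called biological by the study.

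Auxin signalling in flowering plants passes through the Aux/IAA and ARF protein families. ARF proteins (auxin response factors) bind DNA at auxin-responsive genes, and Aux/IAA proteins bind the ARFs and hold those genes silent by recruiting TOPLESS corepressors. Auxin acts as a molecular glue between an Aux/IAA degron and the TIR1/AFB F-box receptors, after which the Aux/IAA is ubiquitinated and degraded and the ARF is released. Many Aux/IAA genes are themselves switched on by auxin, so the family forms a feedback loop. MYC2, the gene mutated here, encodes a bHLH factor of the jasmonate pathway that binds the G-box.

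Library totals ranged from 21165967 to 30604815 counts, so 1 read was worth 0.0344 to 0.0482 CPM (the count scaled to the library's total). The file headers placed Col-0 replicates 1 and 2 in 1 sequencing run, Col-0 replicate 3 in another and all myc2 libraries in the third, so run and genotype cannot be told apart, and results are given below against each Col-0 run as well. MYC2 (AT1G32640) itself had 4808, 4085 and 5087 reads in Col-0 and 1822, 2007 and 1864 reads in myc2. Scaled for depth, these were 205, 197 and 175 CPM in Col-0 and 69.0, 73.5 and 71.0 CPM in myc2. Col-0 replicate 3 was thus the lowest wild-type library. The change was -1.43 ± 0.071 on the log2 scale (SE, edgeR adjusted p = 2.94e-08). The MYC2 transcript was therefore reduced, not missing, in the mutant. All 5 leaf markers were abundant, with summed levels of 27200 to 32800 CPM in Col-0 and 25500 to 26300 CPM in myc2, without overlap. Of these RBCS1A (log2 -0.24 ± 0.076, edgeR adjusted p = 0.029) and CA1 (-0.20 ± 0.061, edgeR adjusted p = 0.0247) were lower in myc2, and the part of this in the results was not tested. The 4 flower markers had at most 33 reads in any library, 4 seed markers had at most 2 reads in any library, and 4 root markers other than PYK10 (RHD6, CASP1, PIN2 and PLT1) had at most 13. PYK10, a beta-glucosidase gene that is strong in roots, was the exception at 223 to 251 CPM in Col-0 and 459 to 474 CPM in myc2, and its part in the results below was not tested.

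The 44 genes spanned a wide range of transcript levels, given here as CPM per kilobase of exon (Col-0 mean ± SD, n = 3). The most abundant Aux/IAA transcript in Col-0 was IAA8 at 102 ± 2.98, whose product restrains lateral root formation. IAA7 (AXR2) followed at 87.5 ± 5.27 and IAA17 (AXR3) at 79.5 ± 6.59, and the Col-0 libraries of IAA7, IAA17 and IAA16, the next gene, overlapped from neighbour to neighbour. The first 5 genes in this order, down to IAA9 at 65.3 ± 4.32, made up 64.9% of the family's CPM in Col-0 and 60.9% in myc2. In myc2 the order of the means at the top changed, with IAA7 first at 97.4 ± 2.54 and IAA8 next at 83.0 ± 1.16. IAA17 was at 54.8 ± 1.46, below IAA16 and IAA9. The myc2 libraries of IAA8 overlapped those of IAA16 (82.6 ± 0.983), and those of IAA17 overlapped those of IAA3 (53.4 ± 1.81).

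Among the ARF genes, ARF2, a repressor that limits organ size and times leaf senescence, stood well apart at 76.0 ± 0.283 per kilobase in Col-0 and 82.1 ± 1.05 in myc2. ARF1, which acts with ARF2, followed at 30.5 ± 0.518 and ARF8, an activator needed for flower maturation, at 28.7 ± 4.31, and the Col-0 libraries of these last genes overlapped. The lowest was ARF17 at 2.16 ± 0.439, so each of the 15 ARF genes examined lay above 1 CPM per kilobase. Of the 29 Aux/IAA genes, 7 lay below that level in Col-0. The Aux/IAA genes spanned a 3400-fold range, against 35.2-fold for these ARF genes. ARF genes numbered between ARF11 and ARF16 were not among those examined. The ranges thus set a whole family beside a chosen set of genes.

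**Figure D1:**
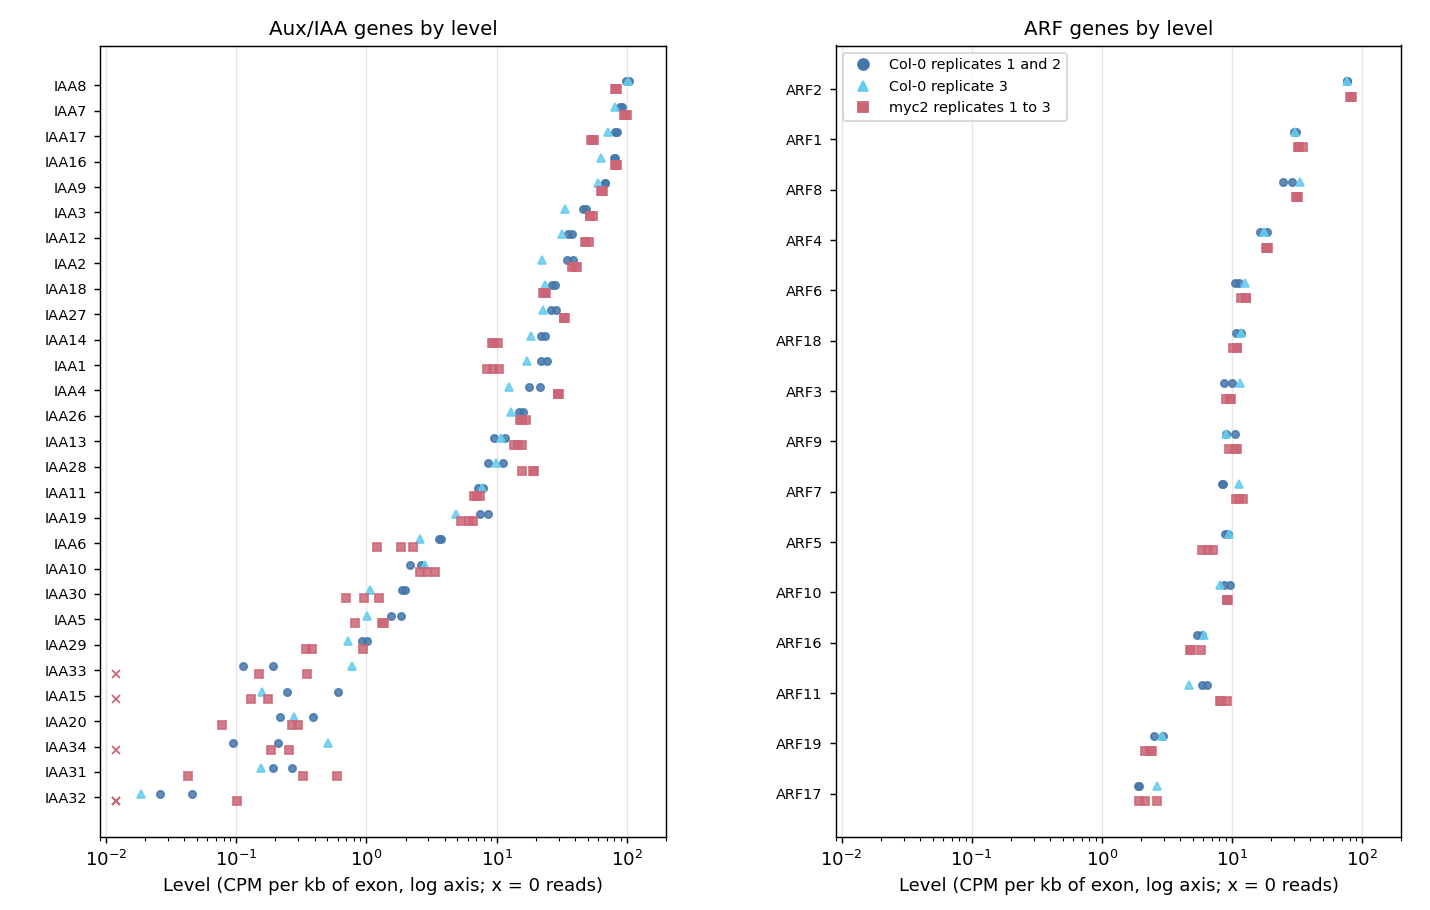
Level of each Aux/IAA gene (left) and ARF gene (right) in the 6 libraries, as CPM per kilobase of exon on a log axis, ordered by the Col-0 mean; crosses mark libraries with 0 reads. IAA8 and ARF2 are the highest genes shown in their panels at 102 and 76.0 in Col-0, and 7 Aux/IAA genes lie below 1.

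Of the 29 Aux/IAA genes, 23 had the codons GGN, TGG, CCN and CCN in a row and in frame, which encode the core of the degron in domain II. The match is printed for the 10 members that changed in myc2, 5 lower and then 5 higher, because the degron is the part of the protein that the auxin receptor holds. Each line gives the coding strand with the core in capitals, from the TAIR10.1 genome; all lie in coding exons, and that of IAA12 is split by an intron.
IAA1, chr4:8361433-8361471, plus strand: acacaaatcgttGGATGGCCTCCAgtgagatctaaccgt
IAA14, chr4:8349472-8349510, minus strand: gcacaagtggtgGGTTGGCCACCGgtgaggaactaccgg
IAA6, chr1:19673317-19673355, minus strand: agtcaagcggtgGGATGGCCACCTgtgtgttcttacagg
IAA17, chr1:1136935-1136973, plus strand: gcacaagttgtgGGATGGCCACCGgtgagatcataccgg
IAA8, chr2:9637722-9637760, plus strand: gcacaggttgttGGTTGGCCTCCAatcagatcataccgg
IAA28, chr5:9033809-9033847, plus strand: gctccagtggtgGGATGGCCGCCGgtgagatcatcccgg
IAA4, chr5:17550737-17550775, plus strand: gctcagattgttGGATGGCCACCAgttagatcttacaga
IAA12, chr1:1240783-1241093, plus strand: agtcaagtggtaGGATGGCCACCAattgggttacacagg
IAA13, chr2:14115227-14115265, minus strand: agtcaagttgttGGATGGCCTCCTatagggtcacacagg
IAA27, chr4:14324648-14324686, minus strand: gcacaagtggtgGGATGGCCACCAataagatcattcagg

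The read totals of members with and without the pattern overlapped. The 6 genes without it (IAA20, IAA30, IAA31, IAA32, IAA33 and IAA34) had 9 to 193 reads summed over all 6 libraries, and the 23 genes with it had 27 to 29023. IAA15 was the gene with the fewest reads among those that carry the pattern. Both genes that rose and genes that fell in myc2 carried the pattern, as the printed sequences show, and 5 of the 6 genes without it had too few reads to be tested and IAA30 did not pass.

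Members were compared between genotypes with edgeR's quasi-likelihood test, fitted on all 18961 genes with sufficient reads, and p-values were adjusted by the Benjamini-Hochberg method over all of them with a threshold of 0.05. In total 36.3% of all tested genes passed. In the Aux/IAA family 23 of 29 genes were tested, and 10 of them (43.5%) passed. Of these 5 were higher in myc2, against 17.6% of all genes, and 5 were lower, against 18.7%. The median log2 fold change of the tested Aux/IAA genes was -0.017 beside 0.012 over all genes. It was -0.072 against Col-0 replicates 1 and 2 (0.0072 over all genes). Against Col-0 replicate 3 it was 0.20 (0.018 over all genes), so the sign of the family median depended on the wild-type run. All 15 ARF genes examined were tested and 2 (13.3%) passed, ARF11 higher and ARF5 lower, with a median of 0.083. As each library holds the RNA of whole shoots, fewer cells of a type and less RNA per cell cannot be told apart in any of these values.

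**Figure D2:**
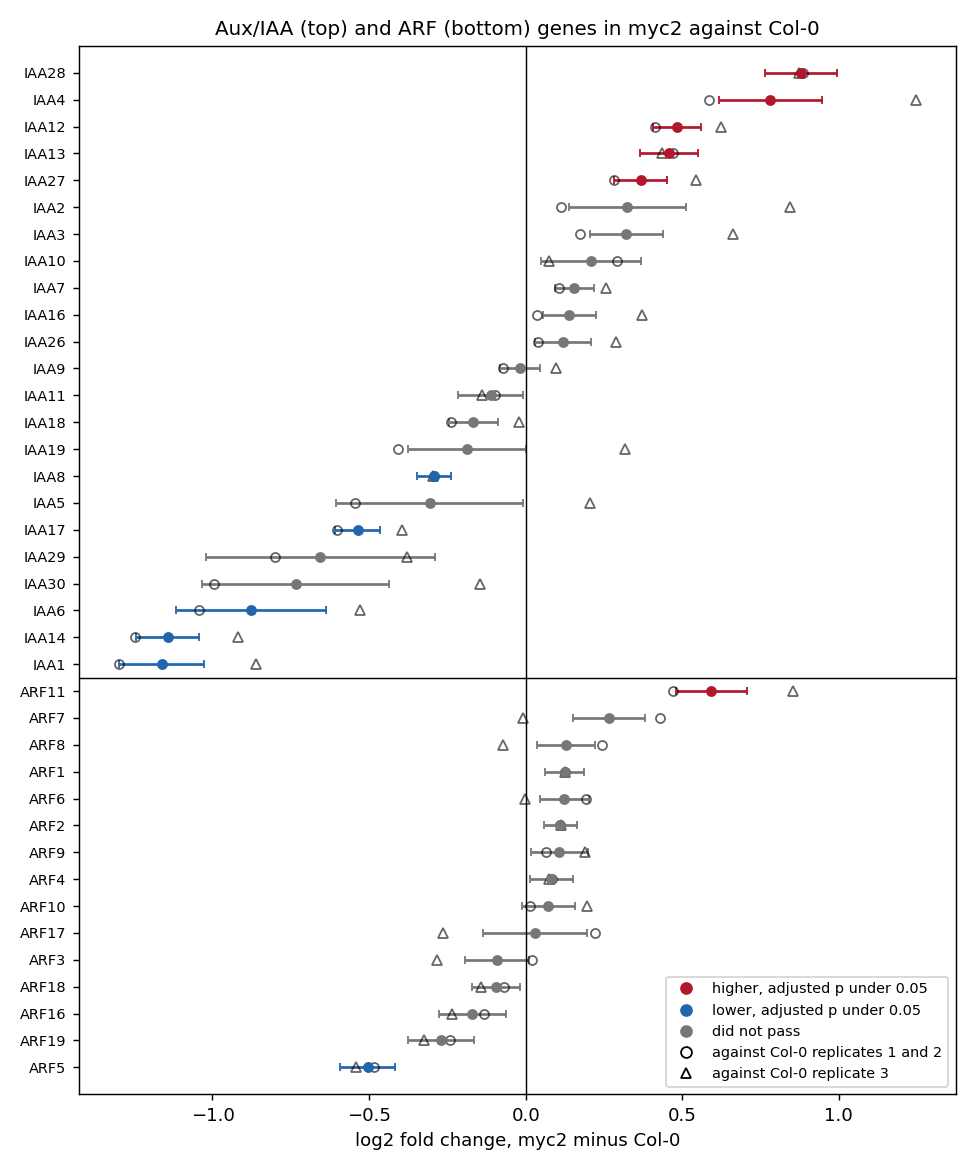
log2 fold change of each tested member in myc2 against Col-0 (filled points, bars show 1 SE of the fit with 3 libraries per genotype), with the change against Col-0 replicates 1 and 2 (open circles) and against Col-0 replicate 3 (open triangles). Filled points run from -1.16 for IAA1 to 0.88 for IAA28, and the open symbols lie furthest apart for IAA30, IAA5, IAA2, IAA19 and IAA4.

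The largest decreases were in IAA1 and IAA14, which lie next to each other on chromosome 4. IAA1 (AXR5, AT4G14560), whose stabilised form makes seedlings auxin resistant, was at 20.9, 23.1 and 16.2 CPM in Col-0 replicates 1 to 3 and at 8.82, 8.05 and 9.95 CPM in myc2. Every myc2 library lay below every Col-0 library, and Col-0 replicate 3 was the lowest of the wild type. The decrease was 2.24-fold (log2 -1.16 ± 0.14, SE, edgeR adjusted p = 4.54e-05). IAA14 (SOLITARY-ROOT, AT4G14550), a repressor of lateral root initiation, was at 44.7, 41.7 and 34.4 CPM in Col-0 and 17.4, 19.3 and 17.9 CPM in myc2. Replicate 3 was again the lowest wild-type library, and the genotypes did not overlap. IAA14 fell 2.21-fold (log2 -1.14 ± 0.10, edgeR adjusted p = 4.6e-06). Among all tested genes, 6.55% passed with at least a 2-fold change, and these were the 2 members that did. Against Col-0 replicates 1 and 2 the log2 fold change was -1.30 for IAA1 and -1.25 for IAA14. Against replicate 3 alone it was -0.86 and -0.92, which is less than 2-fold.

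The other decreases were smaller. IAA6 (SHY1, AT1G52830), a low transcript, was at 3.11, 3.18 and 2.20 CPM in Col-0 and 1.59, 1.94 and 1.03 CPM in myc2. Its libraries did not overlap, but the lowest wild-type library, replicate 3, was close to the highest mutant one. The log2 fold change of IAA6 was -0.88 ± 0.24 (edgeR adjusted p = 0.0138), and against Col-0 replicate 3 alone it was -0.53 and did not pass (edgeR adjusted p = 0.140). It also missed the threshold without Col-0 replicate 2 (edgeR adjusted p = 0.0504) and without myc2 replicate 3 (edgeR adjusted p = 0.0611). IAA17 (AXR3, AT1G04250), which shapes root and shoot growth, was at 112, 108 and 94.9 CPM in Col-0 and 69.9, 72.9 and 73.5 CPM in myc2. No IAA17 library of the mutant reached the wild-type range, and the gene fell by 0.54 on the log2 scale (SE 0.072, edgeR adjusted p = 0.000132). IAA8 (AT2G22670), the leading member in Col-0, was at 215, 203 and 210 CPM there and at 173, 171 and 169 CPM in myc2. These libraries were tight within each genotype, and the log2 fold change of IAA8 was -0.29 ± 0.055 (edgeR adjusted p = 0.00155).

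The 5 other changed Aux/IAA genes rose. IAA28 (AT5G25890), a repressor that acts in lateral root founder cells, was at 11.9, 15.5 and 13.7 CPM in Col-0 and 27.1, 21.9 and 26.5 CPM in myc2. All mutant libraries were above all wild-type libraries, and Col-0 replicate 3 lay between the other two. The rise was 1.84-fold (log2 0.88 ± 0.12, edgeR adjusted p = 0.000118). IAA4 (AT5G43700) was at 29.4, 24.2 and 17.0 CPM in Col-0 and 40.0, 40.9 and 40.1 CPM in myc2. The mutant libraries of IAA4 were nearly equal, whereas its wild-type libraries were spread out with replicate 3 lowest. IAA4 rose 1.72-fold (log2 0.78 ± 0.16, edgeR adjusted p = 0.00581), with 0.58 against Col-0 replicates 1 and 2 and 1.25 against replicate 3.

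IAA12 (BODENLOS, AT1G04550), the repressor known for binding ARF5 in the embryo, was at 57.8, 53.4 and 48.1 CPM in Col-0 and 73.0, 78.0 and 71.6 CPM in myc2. IAA13 (AT2G33310), its close relative, was at 25.7, 21.2 and 24.1 CPM in Col-0 and 30.1, 32.5 and 34.9 CPM in myc2. For both genes the genotypes did not overlap. IAA12 rose by a log2 fold change of 0.48 ± 0.078 (edgeR adjusted p = 0.000529) and IAA13 by 0.46 ± 0.092 (edgeR adjusted p = 0.00233). IAA27 (AT4G29080) was at 40.9, 37.5 and 32.7 CPM in Col-0 and 48.5, 47.5 and 47.1 CPM in myc2. It too was above the wild type in every mutant library, by 0.37 ± 0.085 on the log2 scale (edgeR adjusted p = 0.00542).

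The remaining 13 tested Aux/IAA genes did not pass, with log2 fold changes from -0.73 (IAA30) to 0.32 (IAA2 and IAA3) and edgeR adjusted p-values from 0.0541 to 0.859. IAA3 (SHY2, AT1G04240), which restrains root meristem size, was nearest to the threshold. It was at 62.4, 65.9 and 45.7 CPM in Col-0 and 75.2, 70.9 and 71.0 CPM in myc2, without overlap, and passed in 8 of 16 alternative analyses. Of the 3 leading members IAA7 (AT3G23050) was at 170, 175 and 156 CPM in Col-0 and 181, 191 and 185 CPM in myc2, a difference that did not pass (log2 0.16 ± 0.062, edgeR adjusted p = 0.0709). Over the family, the libraries of the genotypes did not overlap for 13 of 23 tested genes, beside 49.7% of all tested genes. Of these 8 had myc2 above (25.4% of all genes) and 5 had myc2 below (24.3%). The 6 untested members (IAA15, IAA20, IAA31, IAA32, IAA33 and IAA34) had 0 to 17 reads per library.

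The family totals were compared as well. The summed CPM of the 29 genes was 1261, 1236 and 1075 in Col-0 and 1205, 1207 and 1207 in myc2, that is 1191 ± 101 against 1206 ± 1.02 (SD, n = 3). The mutant libraries were nearly equal and lay within the wild-type range, in which replicate 3 was low. The summed CPM of the 15 ARF genes was 794, 808 and 847 in Col-0 and 882, 858 and 861 in myc2, or 816 ± 27.3 against 867 ± 13.1. Here the mutant libraries were all above the wild type, with replicate 3 the nearest to them. No test was made of these sums.

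**Figure D3:**
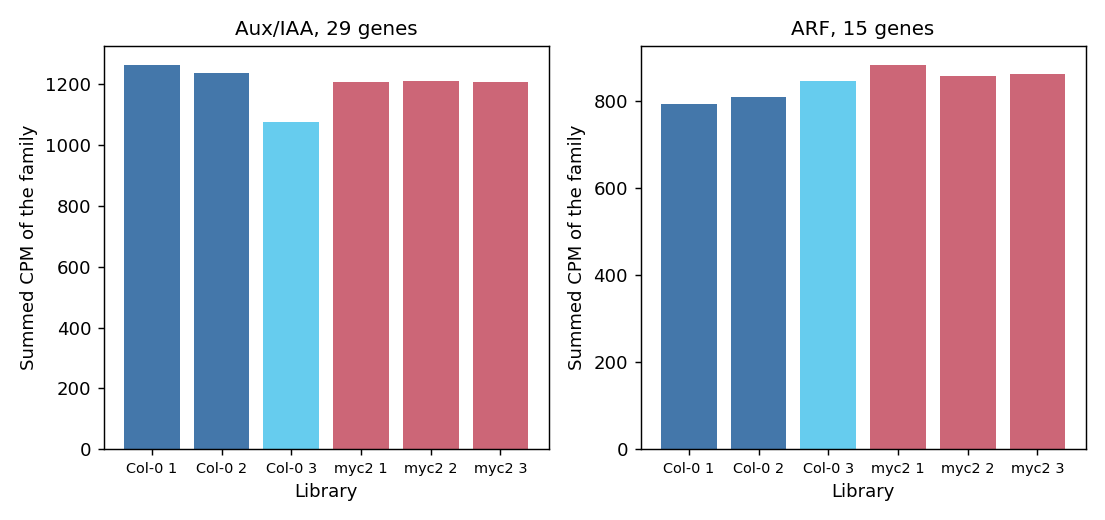
Summed CPM of the 29 Aux/IAA genes (left) and the 15 ARF genes (right) in each library, 1 bar per library. Aux/IAA sums in myc2 (1205 to 1207) fall inside the Col-0 range of 1075 to 1261, and ARF sums in myc2 (858 to 882) lie above the Col-0 range of 794 to 847.

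ARF5 (MONOPTEROS, AT1G19850) activates auxin-responsive genes in the vasculature, the embryo and young flower primordia. It was at 32.1, 33.9 and 34.3 CPM in Col-0 and 25.8, 23.8 and 21.2 CPM in myc2. The wild-type libraries agreed across both runs and every mutant library was lower. ARF5 fell by 0.50 on the log2 scale (SE 0.087, edgeR adjusted p = 0.000838), with -0.48 against Col-0 replicates 1 and 2 and -0.54 against replicate 3. ARF11 (AT2G46530), a class B gene, was at 17.4, 16.0 and 12.8 CPM in Col-0 and 22.6, 24.9 and 22.0 CPM in myc2. All mutant libraries were higher, and replicate 3 was the lowest of the wild type. ARF11 rose 1.51-fold (log2 0.59 ± 0.11, edgeR adjusted p = 0.0017), and was with IAA1, IAA4, IAA6, IAA14 and IAA28 one of 6 members that passed with a change of at least 1.5-fold, beside 15.1% of all tested genes.

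The counts by class take all 3 Col-0 libraries as control. The activators of class A (ARF5, ARF6, ARF7, ARF8 and ARF19) had 1 lower gene of 5 and none higher. Class B, the repressors, had 1 higher gene of 7, and class C (ARF10, ARF16 and ARF17) had none of 3. Of all tested genes, 17.6% were higher and 18.7% lower. Without Col-0 replicate 3, ARF6, ARF7 and ARF8 of class A and ARF2 of class B also passed, as higher. Against Col-0 replicates 1 and 2, ARF6, ARF7 and ARF8 were at 0.19, 0.43 and 0.24 on the log2 scale. Against replicate 3 they were at -0.0012, -0.0073 and -0.071. The 13 ARF genes that did not pass had log2 fold changes between -0.27 (ARF19) and 0.27 (ARF7). ARF2 (AT5G62000), the most abundant, was at 294, 295 and 293 CPM in Col-0 and 322, 314 and 317 CPM in myc2. Its libraries did not overlap, yet the change of 0.11 ± 0.052 did not pass (edgeR adjusted p = 0.121). ARF1 (AT1G59750) was at 77.9, 80.6 and 79.2 CPM in Col-0 and 90.9, 84.1 and 84.3 CPM in myc2, which also did not pass (log2 0.13 ± 0.062, edgeR adjusted p = 0.138). The number of ARF genes that passed depended on the wild-type libraries used. It was 6 without Col-0 replicate 3 and 4 against Col-0 replicate 3 alone, and ARF5 and ARF11 were among the called genes in every alternative.

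Some ARF transcripts are cut or silenced through small RNAs. MicroRNA160 targets the class C genes and microRNA167 targets ARF6 and ARF8, while ARF2, ARF3 and ARF4 are targets of tasiR-ARF. The RefSeq annotation of TAIR10.1 gave the mature microRNAs below, with the seed in capitals. The first sequence was the same at 3 annotated loci and the second at 2.
ath-miR160a-5p, chr2:16340282-16340302, plus strand: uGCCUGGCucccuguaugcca
ath-miR167a-5p, chr3:8108090-8108110, plus strand: uGAAGCUGccagcaugaucua
The best-matching coding sites are shown because they separate the target genes from the other ARF genes examined. Capitals mark bases that differ from the exact complement of the microRNA, a G opposite U included.
ARF17, chr1:29274189-29274209, plus strand: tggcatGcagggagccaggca
ARF10, chr2:12115741-12115761, plus strand: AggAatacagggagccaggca
ARF16, chr4:14704141-14704161, minus strand: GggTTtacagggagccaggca
ARF8, chr5:14633841-14633861, plus strand: tagatcaGgctggcagcttGT
ARF6, chr1:10686478-10686498, minus strand: GagatcaGgctggcagcttGT
The class C sites differed from the exact microRNA160 complement at 1 to 3 bases, against 8 or 9 in the other 12 ARF genes. The ARF8 and ARF6 sites differed from that of microRNA167 at 3 and 4 bases, against 7 to 9 in the other 13. None of the 3 microRNA160 targets, the 2 microRNA167 targets or the 3 tasiR-ARF targets passed between genotypes with all 3 Col-0 libraries as control. Without Col-0 replicate 3, ARF6, ARF8 and ARF2 passed as higher. Their log2 fold changes against replicate 3 itself were -0.0012, -0.071 and 0.11. ARF3 was at 0.019 against Col-0 replicates 1 and 2 and at -0.28 against replicate 3. ARF10 (AT2G28350), with a role in the root cap and seeds, was at 25.1, 27.9 and 23.3 CPM in Col-0 and 26.5, 26.6 and 26.9 CPM in myc2. ARF8 (AT5G37020) was at 87.8, 103 and 119 CPM in Col-0 and 111, 115 and 113 CPM in myc2. In both genes the mutant libraries were close together inside the wild-type range. The small RNAs themselves were not analysed here.

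In all, 3 pairs of Aux/IAA genes lie head to head with no coding gene between them. IAA14 and IAA1 are 10732 bases apart on chromosome 4, IAA3 and IAA17 are 6388 bases apart on chromosome 1, and IAA2 and IAA7 are 12510 bases apart on chromosome 3. The pairs differed in what they showed. IAA1 and IAA14 were both lower in myc2, by similar amounts. Of the next pair IAA17 was lower and IAA3 did not pass, with an estimate of the opposite sign (0.32 ± 0.12). In the last pair neither IAA7 nor IAA2 (0.32 ± 0.19, edgeR adjusted p = 0.221) passed.

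**Figure D4:**
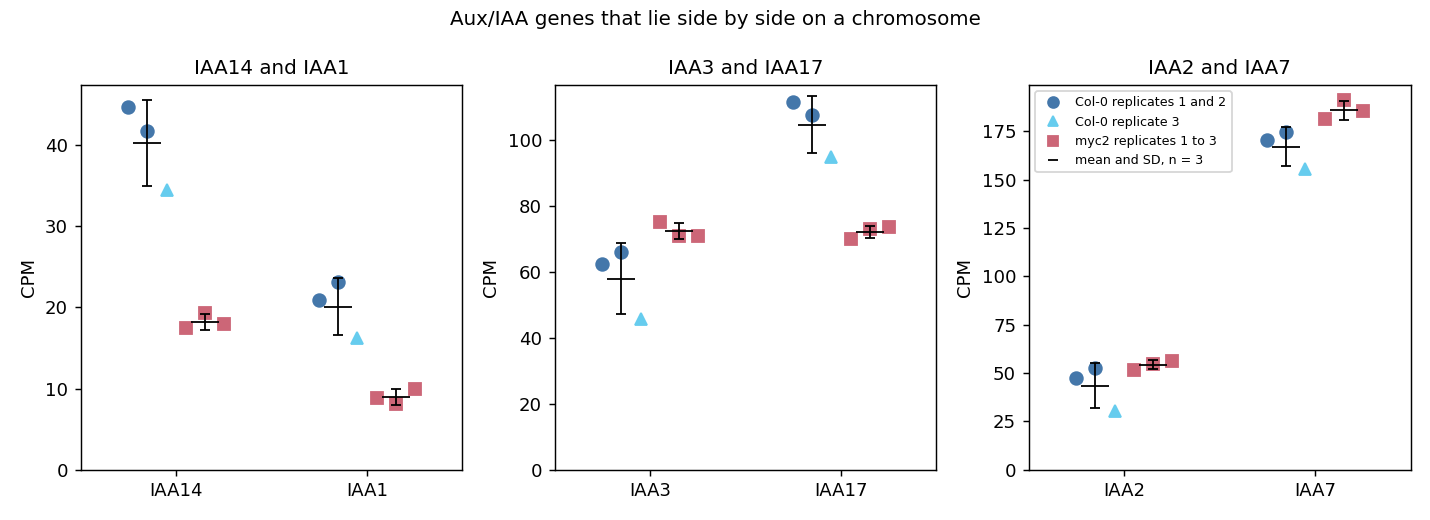
CPM of the neighbouring Aux/IAA genes in each library, with the mean and SD of each genotype (n = 3). IAA14 and IAA1 are both lower in myc2 (18.2 and 8.94 CPM on average, against 40.3 and 20.1), IAA17 is lower beside IAA3, and Col-0 replicate 3 (triangles) is the lowest Col-0 library in all 6 genes.

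The promoters of the head-to-head pair that fell together are printed as the 250 bases before each annotated start (TAIR10.1). The motifs searched on both strands were the G-box CACGTG to which MYC2 binds and the auxin response elements TGTCTC and TGTCGG to which ARFs bind; matches are in capitals and may be in either orientation, and the motifs do not overlap one another in the sequences printed.
IAA1, chr4:8360746-8360995, plus strand: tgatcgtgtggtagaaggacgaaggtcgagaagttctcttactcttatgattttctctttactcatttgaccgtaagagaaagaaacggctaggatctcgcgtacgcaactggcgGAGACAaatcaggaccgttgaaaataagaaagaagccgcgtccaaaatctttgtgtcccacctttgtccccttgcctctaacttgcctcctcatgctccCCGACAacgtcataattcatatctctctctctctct
IAA14, chr4:8350264-8350513, minus strand: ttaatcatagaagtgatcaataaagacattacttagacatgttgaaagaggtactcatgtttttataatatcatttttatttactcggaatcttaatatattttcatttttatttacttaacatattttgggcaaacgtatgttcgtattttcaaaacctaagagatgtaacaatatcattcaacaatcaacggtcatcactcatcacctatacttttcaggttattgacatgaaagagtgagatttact
IAA1 had 1 match to each auxin response element, 135 and 36 bases before its start, and IAA14 had none of the motifs. Over the family 13 of 29 Aux/IAA promoters (44.8%) held at least 1 of the auxin response elements, against 14.7% of 27443 promoters of the genome, and 3 of 15 ARF promoters did. TGTCTC was in 9 Aux/IAA promoters (10.9% of all promoters hold it) and TGTCGG in 6 (4.16%). Matches stood in 3 of 6 members that rose in myc2, 3 of 6 that fell and 7 of 26 that did not pass.

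The G-box was in 4 Aux/IAA promoters (IAA7, IAA19, IAA20 and IAA30), in no ARF promoter and in 6.49% of all promoters. None of the 12 members that changed in myc2 held it in this window. The surroundings of the G-box in the 2 most abundant of these genes are printed since they are the members with the sequence MYC2 is known to bind, with the G-box in capitals.
IAA7, chr3:8194546-8194605, plus strand: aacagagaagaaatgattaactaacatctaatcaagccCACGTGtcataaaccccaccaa
IAA19, chr3:5263904-5263963, plus strand: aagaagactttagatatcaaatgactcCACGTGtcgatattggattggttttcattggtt
IAA19 (MSG2, AT3G15540), known for its part in bending growth of the hypocotyl, was at 8.62, 7.52 and 4.89 CPM in Col-0 and 6.25, 5.42 and 6.63 CPM in myc2. The mutant libraries fell between Col-0 replicate 3 and the other wild-type libraries. IAA19 did not pass (log2 -0.19 ± 0.19, edgeR adjusted p = 0.469).

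The wild-type libraries of the different runs were next compared with each other, in a fit with Col-0 replicates 1 and 2, Col-0 replicate 3 and myc2 as separate groups. Replicate 3 is a single library, whose spread was assumed to equal that of the other groups, and its myc2 comparisons share libraries with this one. Of all tested genes 15.6% differed, 6.3% higher and 9.26% lower in replicate 3. Among the 23 Aux/IAA genes 9 were lower (39.1%) and none was higher, and the lower genes were IAA1, IAA2, IAA3, IAA4, IAA14, IAA16, IAA17, IAA19 and IAA27. Replicate 3 lay below both other Col-0 libraries for 18 of the 23, beside 38.8% of all tested genes. The family's median log2 difference was -0.26 beside 0.0011 over all genes. The count of 9 fell to 5 without Col-0 replicate 1 and to 5 with DESeq2. The 5 leaf markers moved the other way, since all were higher in replicate 3, with a summed level of 32800 CPM against 27200 and 28900 CPM in replicates 1 and 2; their part in the Aux/IAA differences was not tested.

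Of the members, 3 passed between the wild-type runs with at least 1.5-fold, IAA2, IAA19 and IAA4, beside 3.73% of all tested genes. The estimates of the low transcripts IAA30 (-0.85 ± 0.36) and IAA5 (-0.75 ± 0.41) were larger but did not pass. IAA2 (AT3G23030) was at 47.5 and 52.8 CPM in Col-0 replicates 1 and 2 and at 30.2 CPM in replicate 3, while myc2 had 51.7, 54.5 and 56.4 CPM. Replicate 3 thus stood below the other 5 libraries. Its log2 difference from replicates 1 and 2 was -0.73 ± 0.093 (edgeR adjusted p = 7.12e-06), and the myc2 difference was 0.11 against replicates 1 and 2 and 0.85 against replicate 3. IAA19 differed between the wild-type runs by -0.73 ± 0.18 (edgeR adjusted p = 0.00796). In myc2 it was -0.41 against replicates 1 and 2, which passed (edgeR adjusted p = 0.0149), and 0.32 against replicate 3, which did not (edgeR adjusted p = 0.143). IAA4 was -0.66 ± 0.11 in replicate 3 (edgeR adjusted p = 0.000255).

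The ARF genes showed a mixed picture in replicate 3, with 3 higher and 1 lower of 15. By sign, 10 of the 15 estimates were above 0 and 5 below, with a median of 0.072 beside 0.0011 over all genes. Replicate 3 lay below both other Col-0 libraries for 3 ARF genes, beside 38.8% of all tested genes. It lay above both for 8, and the share of all genes above both was not computed, so this count cannot be weighed. ARF7 (NPH4, AT5G20730), an activator for tropic growth and lateral roots, was at 37.1, 37.5 and 50.6 CPM in Col-0 and 54.0, 47.2 and 49.7 CPM in myc2. Replicate 3 was within the mutant range, unlike replicates 1 and 2. ARF7 was higher in replicate 3 by 0.44 ± 0.089 (edgeR adjusted p = 0.0014), as were ARF8 (0.32 ± 0.078, edgeR adjusted p = 0.00734) and ARF3 (ETTIN, a gene of gynoecium and leaf polarity, 0.30 ± 0.10, edgeR adjusted p = 0.0492). ARF11 was lower by 0.39 (SE 0.12, edgeR adjusted p = 0.0388). The count of 4 fell to 1 without Col-0 replicate 1 and to 2 without myc2 replicate 1, without myc2 replicate 3 or with DESeq2. In the comparison with myc2, ARF7 was 0.43 against replicates 1 and 2 and -0.0073 against replicate 3.

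**Figure D5:**
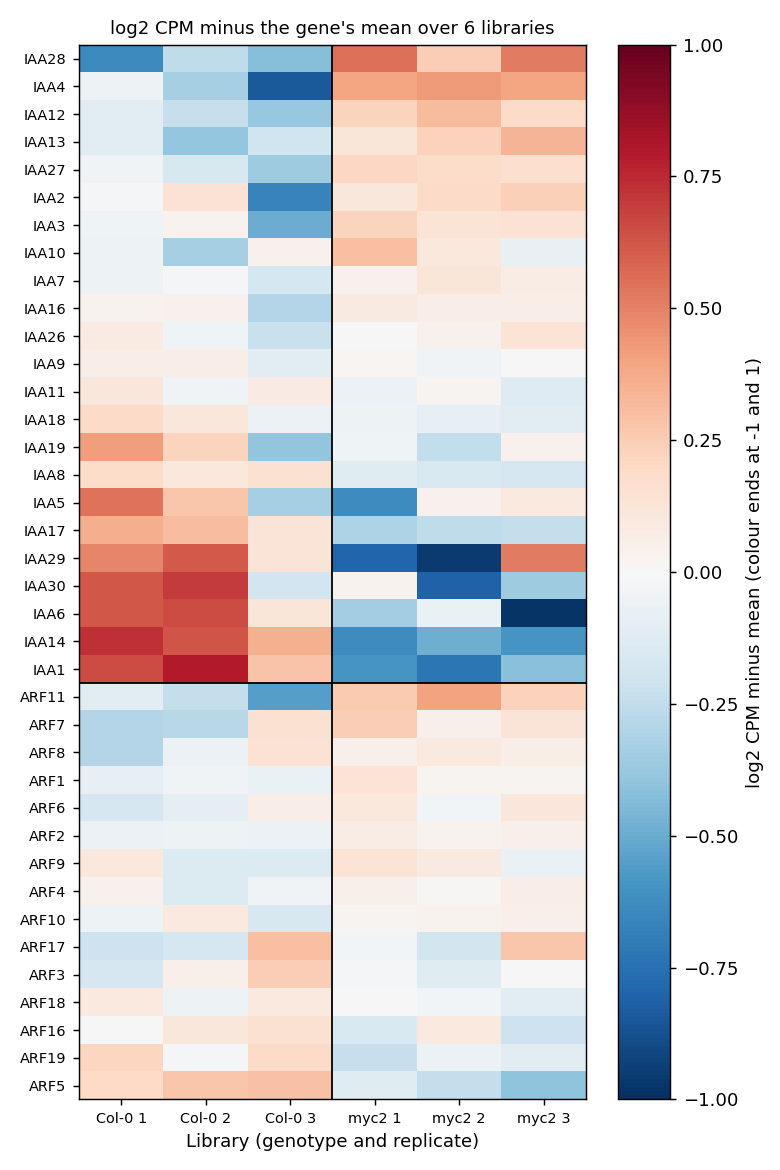
log2 CPM of each tested member minus its mean over the 6 libraries, from blue (below) to red (above), with Aux/IAA genes above the line and ARF genes below; the colour scale ends at -1 and 1. Col-0 replicate 3 is lower than replicates 1 and 2 for 18 of 23 Aux/IAA genes, and IAA1 and IAA14 are red in Col-0 and blue in myc2.

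When a change had to pass in the same direction against both Col-0 runs taken separately, 10 of 23 Aux/IAA genes (43.5%) and 2 of 15 ARF genes (13.3%) remained, beside 29.7% of all tested genes. These were 6 higher and 4 lower Aux/IAA genes, with IAA3 gained and IAA6 lost relative to the 10 genes above.

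The rest of the auxin pathway was examined in a list of 61 genes for receptors, corepressors, the ubiquitin ligase, auxin synthesis, transport, inactivation and SAUR growth genes. Of 52 tested, 16 were higher in myc2, beside 17.6% of all genes, and 10 were lower, beside 18.7%. Against each Col-0 run separately, 19 passed in the same direction (36.5%, beside 29.7% of all genes), 11 higher and 8 lower. By role, 2 of 6 receptors were higher, led by AFB2 (log2 0.39 ± 0.072, edgeR adjusted p = 0.0014), and 1 of 5 TOPLESS-type corepressors was higher, TPL itself (0.24 ± 0.068, edgeR adjusted p = 0.0148). Of these AFB2 passed against both runs, while TPL did not pass against Col-0 replicate 3 (edgeR adjusted p = 0.0812), nor did the other receptor, AFB5 (edgeR adjusted p = 0.233). Of the ubiquitin ligase genes 1 of 5 was lower, the RING subunit gene RBX1 (-0.45 ± 0.079, edgeR adjusted p = 0.00103). In synthesis 2 genes were higher and 2 lower of 7 tested. The smaller of the 2 decreases, in TAR2, depended on the wild-type run, at log2 -0.51 against Col-0 replicates 1 and 2 and -0.20 against replicate 3. YUC2, a flavin monooxygenase gene of auxin synthesis, was 2.18, 1.73 and 2.86 CPM in Col-0 and 4.16, 4.76 and 4.38 CPM in myc2 (0.95 ± 0.18, edgeR adjusted p = 0.00157), whereas its relative YUC5 was 1.32, 1.40 and 1.45 CPM in Col-0 and 0.303, 0.439 and 0.267 CPM in myc2 (-2.03 ± 0.28, edgeR adjusted p = 0.000181).

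Among transport genes 6 were higher and 3 lower of 14 tested (17.6% and 18.7% of all genes), and 5 and 2 of them against both Col-0 runs. The largest rise was in ABCB4, an auxin transporter of the ABC family (1.11 ± 0.14, edgeR adjusted p = 8.16e-05), and the largest fall was in PID, the kinase that directs PIN carriers (-0.68 ± 0.13, edgeR adjusted p = 0.00139). Of 7 tested inactivation genes, 4 were lower, the amino acid conjugating GH3 genes GH3.1, GH3.2, GH3.3 and GH3.6, at log2 fold changes from -2.34 to -1.08, and GH3.5 was higher (0.37 ± 0.098, edgeR adjusted p = 0.011). The 4 decreases passed against both runs, whereas GH3.5 did not pass against Col-0 replicate 3 (0.26, edgeR adjusted p = 0.0849). GH3.1 was low throughout, with 12, 14 and 22 reads in Col-0 and 4, 0 and 6 reads in myc2 (-2.34 ± 0.57, edgeR adjusted p = 0.00707). Of 8 tested SAUR genes 4 were higher, 3 of them against both runs, and none lower, with the largest change in SAUR22 (1.34 ± 0.31, edgeR adjusted p = 0.00575). SAUR22 has near-identical neighbours in the SAUR19 to SAUR24 cluster, between which reads may have been divided.

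None of the 44 members had a 75-base stretch of an exon that was found elsewhere in the genome, outside the member's own span. Stretches that cross the join of exons were not searched. However, 13 members overlap another annotated gene, and reads from overlapping genes cannot be told apart where the counting ignored strand (strand setting not given in the sources used here). Among those named above, IAA3 shares 640 bases with AT1G04230, IAA13 shares 1176 bases with a gene that had 0 reads, and ARF7 shares 254 bases with CPN20, which had 19034 to 23900 reads per library. IAA34 shares 156 bases on the same strand with AT1G15060, which had 891 to 1549 reads per library. The overlaps of ARF1, ARF5 and IAA27 are 6, 23 and 41 bases.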

How the data were processed

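Poly(A) RNA of each sample was turned into a library using the TruSeq kit from Illumina. The submitters' processing notes name fastp, HISAT2, SAMtools, StringTie and the TAIR10 genome (tool versions, counter, strand setting and annotation release not given in the sources used here). Read counts per gene were deposited by the authors as whole numbers, 1 file per library, without normalization, and they were the input to all tests. A deposited table of the authors' own comparison (fold changes, p-values) was not used.

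Members were matched by locus identifier. Genotypes came from the labels. Counts were tested with edgeR 4.0.16 in R 4.3.3 (TMM scaling, filterByExpr, robust quasi-likelihood fit, Benjamini-Hochberg adjustment, threshold 0.05), on 18961 genes of 23688 with reads. CPM use TMM-scaled totals. The run of each library, taken from its file header, defined the 3 groups of a second fit. P-values measure only the spread between these libraries. Replicate pairs all differed by more than sampling noise (chi-square per degree of freedom 2.46 to 20.1), so none was merged. The biological coefficient of variation was 8.44%. Scripts were tested on simulated data.

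Results were recomputed with RLE or upper-quartile size factors, with DESeq2 1.42.0 and voom in limma 3.58.1, and with no filter, a filter of 5 CPM in 3 libraries, thinned counts, a replicate block, each library left out, and each Col-0 run as its own group. All members may be named; per-library values are given for MYC2, members that passed with at least 1.5-fold in either comparison and the 3 most abundant per family, and for further members where a result turns on them, which were chosen after their values were seen. In other roles the gene with the largest fold in each direction is named. Members, lists and markers were chosen with earlier results of these data known. Sequences came from the RefSeq annotation and genome of TAIR10.1, to which 97.3% of the gene identifiers matched; protein and tasiR-ARF sequences were not used here.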

Additional observations from a re-analysis of the deposited data

How the results depend on the processing

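No member changed direction as a called value. The counts of changed members in myc2 were 10 Aux/IAA genes (9 to 14 over 16 alternatives, 10 to 14 with 1 library left out), 2 ARF genes (2 to 6, also with 1 library left out) and 26 other pathway genes (19 to 28, and 20 to 26). Over all genes 6889 passed, and 5032 to 8417 with 1 library left out. The ARF count was 6 without Col-0 replicate 3, 6 when only the first wild-type run served as control and 4 when only the second did. Of the 12 called members, 11 passed in every alternative, and IAA6 missed in the 3 named in the report and was too low to be tested under the filter of 5 CPM. Between the wild-type runs, 2950 genes passed, 1952 with DESeq2 and 2408 to 3029 with 1 library left out; the 9 Aux/IAA genes became 5 with DESeq2 and 5 to 9 with 1 library left out, and the 4 ARF genes became 2 and 1 to 4. For the replicate block, deviations of same-numbered libraries from their genotype mean were nearly uncorrelated (-0.025, 0.013 and 0.021). With 3 libraries per genotype and Col-0 replicate 3 from another run, these values cannot decide whether the numbers pair the samples. The block gave 6639 genes, 11 Aux/IAA genes and 3 ARF genes. The causes of these shifts were not tested. Depth limits the 6 untested Aux/IAA genes, which had at most 17 reads in a library.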

Other observations

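IAA33 and IAA34, which lack the degron pattern in their coding sequence, were too low to be tested, and both had their highest count in Col-0 replicate 3. IAA33 had 2, 3 and 17 reads in Col-0 replicates 1 to 3 and 3, 0 and 7 reads in myc2, and IAA34 had 5, 2 and 15 reads in Col-0 and 5, 7 and 0 reads in myc2. IAA34 shares 156 bases on the same strand with AT1G15060, which had 891, 1013 and 1549 reads in Col-0 and 1166, 1320 and 1265 reads in myc2, also with its highest count in Col-0 replicate 3, and the part of this gene's reads in the IAA34 counts was not tested.

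The gene next to ARF19, AT1G19210, overlaps it by 6 bases on the same strand. AT1G19210 had 154, 149 and 242 reads in Col-0 and 1, 3 and 3 reads in myc2 (edgeR adjusted p = 1.09e-08), while ARF19 was at 12.7, 10.9 and 12.5 CPM in Col-0 and 9.31, 10.5 and 10.2 CPM in myc2 and did not pass (log2 -0.27 ± 0.11, edgeR adjusted p = 0.0641). For both genes every myc2 library lay below every Col-0 library, but the changes differed greatly in size (log2 -6.32 for AT1G19210). ARF19 passed as lower without Col-0 replicate 2. AT1G19210 was chosen after its values were seen.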
